A study of Mus musculus with 16 samples.

Results

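The genes described here build the MHC class I molecule and load it with peptide. They were chosen by gene symbol, and all 7 were found among the 23100 genes of the counts table: the heavy chains H2-K1, H2-D1 and H2-T23, the light chain B2m, the peptide transporter subunit Tap2, the loading factor Tapbp (tapasin) and the transcriptional coactivator Nlrc5. RNA was sequenced from fibroblasts grown out of E13.5 mouse embryos (MEFs) of the strain C57BL/6. There were 4 lines, 2 wildtype (Zac+/+) and 2 mutant (Zac+/-, with KOpat in their titles), the latter heterozygous for Plagl1. Plagl1, also called Zac1, is an imprinted zinc-finger gene known to be expressed from the paternal copy. Every line was harvested after 2 days in vitro, when the cells proliferated, and after 8, 10 and 12 days, when they were quiescent, which gives 16 libraries with 2 lines per genotype and day. All were grown in DMEM with 10% serum, and no agent such as an interferon is named in the labels.

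A class I molecule is a heavy chain bound to beta-2-microglobulin and to a short peptide, and it shows peptides from inside the cell to CD8 T cells and natural killer cells. The proteasome cuts proteins into peptides, the TAP transporter (Tap1 with Tap2) carries them into the endoplasmic reticulum, and tapasin holds the empty heavy chain next to TAP until a peptide is bound. Nlrc5 is known to raise transcription of the class I genes through a promoter complex that also holds RFX, NF-Y and CREB-family proteins, and interferons raise nearly every gene of the pathway. Fibroblasts carry class I molecules at low levels when no interferon is present.

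The promoters of the members are shown because those known factors act there. RefSeq promoters (GRCm38.p6) were at hand for 5 of the 7 members, H2-K1, H2-D1, H2-T23, B2m and Tapbp, and the 250 bases before the start of 4 of them are printed 5′ to 3′. Capitals mark matches, on either strand, to 4 motifs: GAAANNGAA or GAANNGAAA, a paired site of the interferon-regulatory-factor type; GGGATTCCC, of the kappaB type; TGACG, the core of a CREB-type site; and CCAAT, the NF-Y box. None of these matches overlaps another in the printed windows. H2-K1 has 2 listed starts, of which the one farthest downstream is used.
H2-K1, chr17:34000334-34000583, minus strand: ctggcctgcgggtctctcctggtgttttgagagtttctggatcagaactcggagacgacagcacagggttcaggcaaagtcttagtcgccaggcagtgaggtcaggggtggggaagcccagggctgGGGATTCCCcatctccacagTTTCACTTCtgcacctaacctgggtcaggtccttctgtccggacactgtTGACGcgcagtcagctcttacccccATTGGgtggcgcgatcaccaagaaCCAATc
H2-D1, chr17:35262844-35263093, plus strand: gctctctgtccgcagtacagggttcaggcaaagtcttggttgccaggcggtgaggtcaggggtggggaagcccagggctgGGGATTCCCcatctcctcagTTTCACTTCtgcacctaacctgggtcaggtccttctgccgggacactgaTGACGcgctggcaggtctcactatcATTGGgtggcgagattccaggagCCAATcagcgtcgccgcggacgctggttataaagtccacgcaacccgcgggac
H2-T23, chr17:36032702-36032951, minus strand: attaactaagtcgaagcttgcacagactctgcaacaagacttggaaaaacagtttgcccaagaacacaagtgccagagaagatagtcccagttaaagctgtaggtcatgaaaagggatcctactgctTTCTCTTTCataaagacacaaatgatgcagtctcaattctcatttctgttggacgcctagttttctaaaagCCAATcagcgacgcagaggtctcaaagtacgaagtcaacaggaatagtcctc
B2m, chr2:122147437-122147686, plus strand: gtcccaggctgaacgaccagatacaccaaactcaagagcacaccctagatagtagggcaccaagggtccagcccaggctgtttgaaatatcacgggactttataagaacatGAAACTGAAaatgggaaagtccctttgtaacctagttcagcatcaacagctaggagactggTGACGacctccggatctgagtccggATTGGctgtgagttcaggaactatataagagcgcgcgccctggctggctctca

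H2-K1 and H2-D1 held the same 5 matches in the same order. In H2-K1 the kappaB-type match began 124 bases before the start, the paired site 104, TGACG 55 and the CCAAT matches 30 and 6. In H2-D1 they began at 170, 150, 101, 76 and 53. The aligned windows of these genes were identical at 88.7% of bases, against 49.4% to 62.6% for every other pair of the 5 promoters. B2m held a paired site at 139, TGACG at 78 and a CCAAT match at 53, and H2-T23 a paired site at 123 and a CCAAT match at 52. The Tapbp window held CCAAT matches only, at 248 and 165. Among 27025 promoter windows of this length, 12.6% held a paired site, 0.311% the kappaB-type motif, 17.9% TGACG and 34.5% CCAAT. A match is a run of letters and not a measured binding site.

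The libraries held 28079241 to 61039793 counted reads. The label check held at every day. At day 2 Plagl1 was at 37.9 and 45.4 CPM (read counts scaled to library size, with TMM factors) in the wildtype lines. It was at 7.68 and 9.18 in the mutant lines, 20.1% of wildtype (edgeR quasi-likelihood test, adjusted p = 0.00085). In a fit of single days, the mutant was at 35.5%, 24.5% and 24.7% of wildtype at days 8, 10 and 12. Plagl1 itself rose with quiescence, 4.44-fold in wildtype and 6.00-fold in mutant cells. The labelled cell type was checked with 10 fibroblast markers, whose summed level was 21203 to 24125 CPM at day 2 and 46825 to 66320 CPM later. In each genotype 8 of them were higher at quiescence and 2 were lower. Those 2 were Vim (log2 change -0.71 in wildtype and -0.42 in mutant cells) and Thy1 (-0.64 and -0.67). In the main comparisons, days 8, 10 and 12 of a line were summed into 1 quiescent sample, so that the line is the replicate, and fold changes are log2 with their standard error (SE). A gene is called where the edgeR p, adjusted by Benjamini-Hochberg over 15740 genes, is under 0.05. With 2 lines against 2, an exact permutation test cannot go below p = 0.333, so the calls rest on a spread estimated across genes, and p-values measure the spread between these lines. In RNA from a whole culture, fewer cells of a type and less RNA per cell cannot be told apart.

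The class I genes were higher in quiescent than in proliferating fibroblasts in every line. In wildtype cells 6 of the 7 rose and none fell, and in mutant cells 6 of the 7 rose and none fell. By this call, 23.9% of all genes tested rose in wildtype and 21.1% in mutant cells. All 7 passed the filter on low counts. Their median log2 change was 1.60 in wildtype and 1.19 in mutant cells, beside 0.05 over all genes in either genotype. For each of the 7, both lines lay higher at quiescence than both lines of that genotype at day 2. How many of all genes separate in this way was not counted, so it does not set the members apart. H2-D1 in wildtype and Nlrc5 in mutant cells were the members not called.

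**Figure D1:**
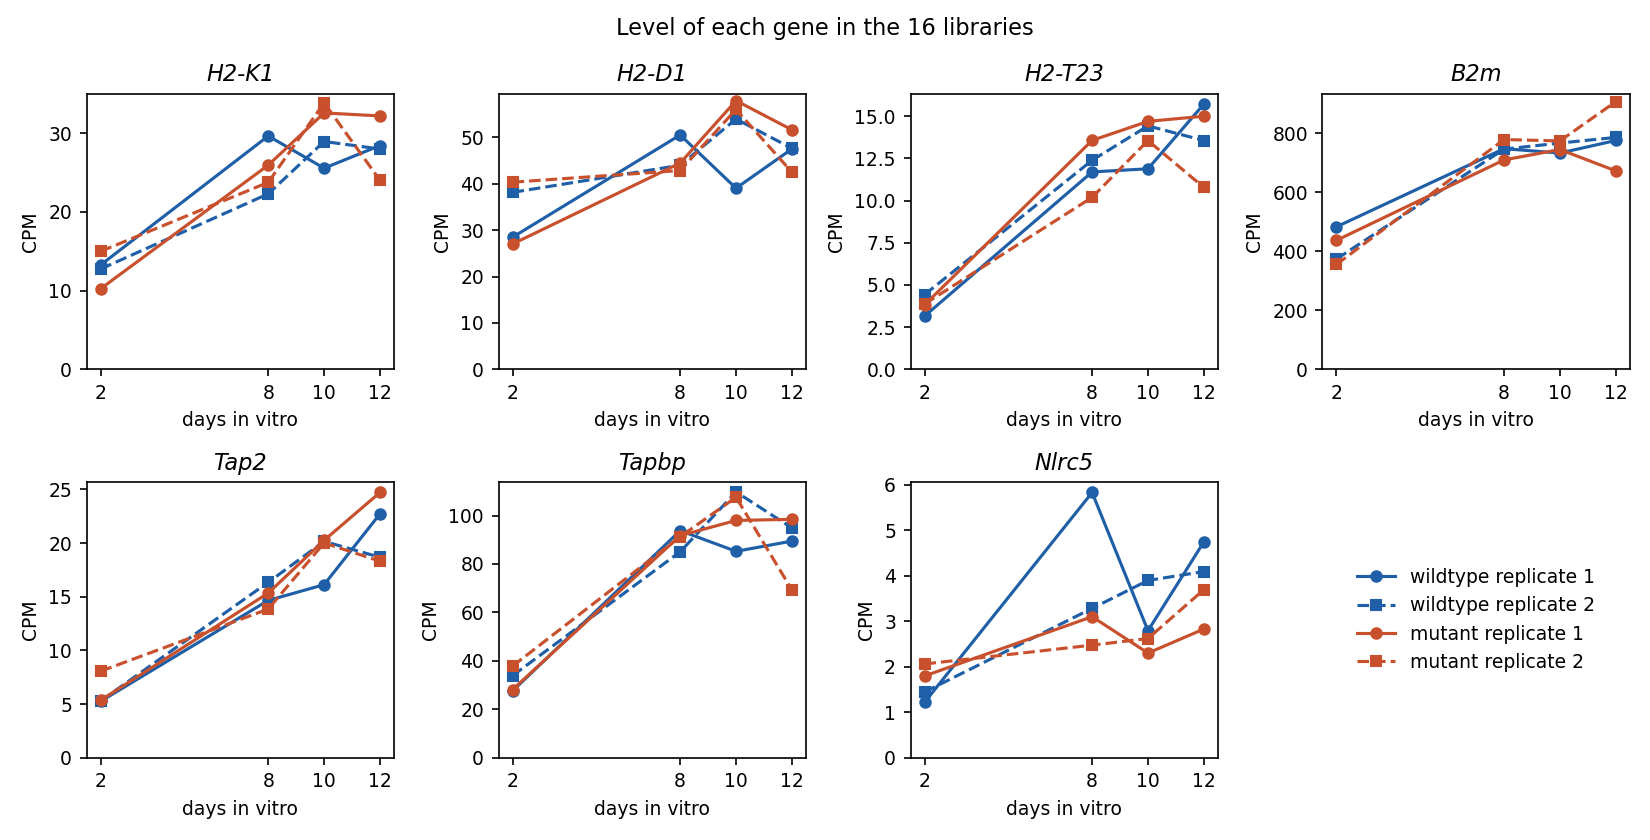
Level of each of the 7 genes in CPM (vertical axis, from 0) against days in vitro (horizontal axis) in the 4 lines, 1 point per library. Tapbp goes from 27.6 to 37.9 CPM at day 2 to 69.3 CPM or more later, whereas H2-D1 starts at 27.0 and 28.5 CPM in the replicate 1 lines and at 38.2 and 40.4 CPM in the replicate 2 lines.

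H2-K1 encodes a classical heavy chain, which presents peptides to CD8 T cells. In wildtype replicates 1 and 2 it was at 13.3 and 12.7 CPM at day 2, 29.6 and 22.3 at day 8, 25.6 and 28.9 at day 10, and 28.4 and 28.0 at day 12. In mutant replicates 1 and 2 it was at 10.2 and 15.0 CPM, then 25.9 and 23.8, 32.6 and 33.9, and 32.2 and 24.03. The lowest quiescent library lay above the highest day 2 library, and the genotypes overlapped at day 2, 8 and 12. H2-K1 rose by 1.07 (SE 0.17) on the log2 scale in wildtype (adjusted p = 0.00059) and by 1.19 (SE 0.17) in mutant cells (adjusted p = 0.000415). Line by line the rise was 2.14-fold and 2.099-fold in wildtype, and 2.98-fold and 1.82-fold in mutant replicates 1 and 2.

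H2-D1, the other classical heavy chain, moved least in wildtype cells. The wildtype lines were at 28.5 and 38.2 CPM at day 2, 50.5 and 44.0 at day 8, 39.1 and 54.0 at day 10, and 47.5 and 47.7 at day 12. The mutant lines were at 27.0 and 40.4 CPM, then 44.5 and 42.9, 57.9 and 56.0, and 51.6 and 42.5. Both replicate 2 lines began higher than both replicate 1 lines, and mutant replicate 2 at day 2 lay above the lowest quiescent library, wildtype replicate 1 at day 10. The rise was 1.64-fold and 1.93-fold in wildtype and mutant replicate 1, and 1.29-fold and 1.17-fold in replicate 2. The fitted change was 0.51 (SE 0.19) in wildtype, with adjusted p = 0.0518, and 0.56 (SE 0.19) in mutant cells, with adjusted p = 0.0414. Both values lie at the threshold: with the line as a fixed block in edgeR, the wildtype change had adjusted p = 0.0230, and with the line as a random block in limma-voom 0.0493. Without mutant replicate 1 the mutant change was 0.23, with adjusted p = 0.422.

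H2-T23 encodes Qa-1, a nonclassical heavy chain that shows leader peptides of other class I chains to natural killer cells. The wildtype lines were at 3.15 and 4.43 CPM at day 2, 11.7 and 12.4 at day 8, 11.9 and 14.4 at day 10, and 15.7 and 13.6 at day 12. The mutant lines were at 3.82 and 3.87 CPM, then 13.6 and 10.2, 14.7 and 13.6, and 15.0 and 10.8. Every quiescent library was above 10 CPM and every day 2 library below 5. H2-T23 rose by 1.82 (SE 0.20) in wildtype (adjusted p = 6.59e-05) and by 1.76 (SE 0.20) in mutant cells (adjusted p = 0.000108), the largest fitted change among the 7 in either genotype.

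Counts of the heavy chains are uncertain because class I genes resemble each other. Of all runs of 50 bases in the reference transcript (GENCODE M21), H2-T23 shared 28.8% with transcripts of other genes, H2-D1 14.3% and H2-K1 8.79%, whereas Tapbp shared 2.00%, Tap2 0.737%, and B2m and Nlrc5 none. How the authors' counting treated such reads is not given in the sources used here.

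B2m, the light chain that heavy chains need for their normal level at the surface, was at 483 and 374 CPM in the wildtype lines at day 2, 748 and 747 at day 8, 733 and 767 at day 10, and 776 and 786 at day 12. The mutant lines were at 437 and 356 CPM, then 710 and 779, 745 and 774, and 673 and 908. The replicate 1 lines began higher than the replicate 2 lines, the opposite of H2-D1, so the rise was 1.58-fold and 1.67-fold in replicate 1 and 2.07-fold and 2.25-fold in replicate 2. The fitted rise was 0.83 (SE 0.15) in wildtype (adjusted p = 0.00134) and 0.95 (SE 0.15) in mutant cells (adjusted p = 0.00076). Without wildtype replicate 2 the wildtype change was 0.62, with adjusted p = 0.0512.

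Tap2 forms the peptide transporter with Tap1. The wildtype lines were at 5.26 and 5.29 CPM at day 2, 14.7 and 16.3 at day 8, 16.1 and 20.2 at day 10, and 22.7 and 18.7 at day 12. The mutant lines were at 5.36 and 8.07 CPM, then 15.3 and 13.9, 20.3 and 20.01, and 24.7 and 18.3. Mutant replicate 2 stood above the other 3 lines at day 2, and no quiescent library came near the day 2 range. Tap2 rose by 1.80 (SE 0.19) in wildtype (adjusted p = 5.33e-05) and by 1.44 (SE 0.19) in mutant cells (adjusted p = 0.000249). The rise was 3.49-fold and 3.52-fold in the wildtype lines and 3.67-fold in mutant replicate 1, against 2.12-fold in mutant replicate 2.

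Tapbp edits the peptide cargo of class I molecules. The wildtype lines were at 27.6 and 33.9 CPM at day 2, 93.8 and 85.0 at day 8, 85.2 and 109.7 at day 10, and 89.4 and 94.9 at day 12. The mutant lines were at 28.2 and 37.9 CPM, then 91.7 and 91.3, 98.0 and 107.5, and 98.4 and 69.3. Mutant replicate 2 at day 12 was the lowest quiescent library, as it also was among the day 12 libraries for H2-K1, H2-D1, H2-T23 and Tap2. Tapbp rose by 1.60 (SE 0.15) in wildtype, with the smallest adjusted p of the 7 (2.78e-05), and by 1.51 (SE 0.15) in mutant cells (adjusted p = 5.19e-05).

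Nlrc5 was the scarcest member, with 41 to 298 reads a library. The wildtype lines were at 1.22 and 1.45 CPM at day 2, 5.83 and 3.28 at day 8, 2.79 and 3.90 at day 10, and 4.74 and 4.09 at day 12. The mutant lines were at 1.80 and 2.06 CPM, then 3.10 and 2.48, 2.30 and 2.62, and 2.83 and 3.70. At day 2 both mutant lines lay above both wildtype lines, and at days 8, 10 and 12 both lay below. Nlrc5 rose by 1.64 (SE 0.27) in wildtype cells (adjusted p = 0.000706). In mutant cells its change was 0.53 (SE 0.26), with adjusted p = 0.127, and the lines changed 1.55-fold and 1.36-fold against 3.79-fold and 2.63-fold in wildtype.

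**Figure D2:**
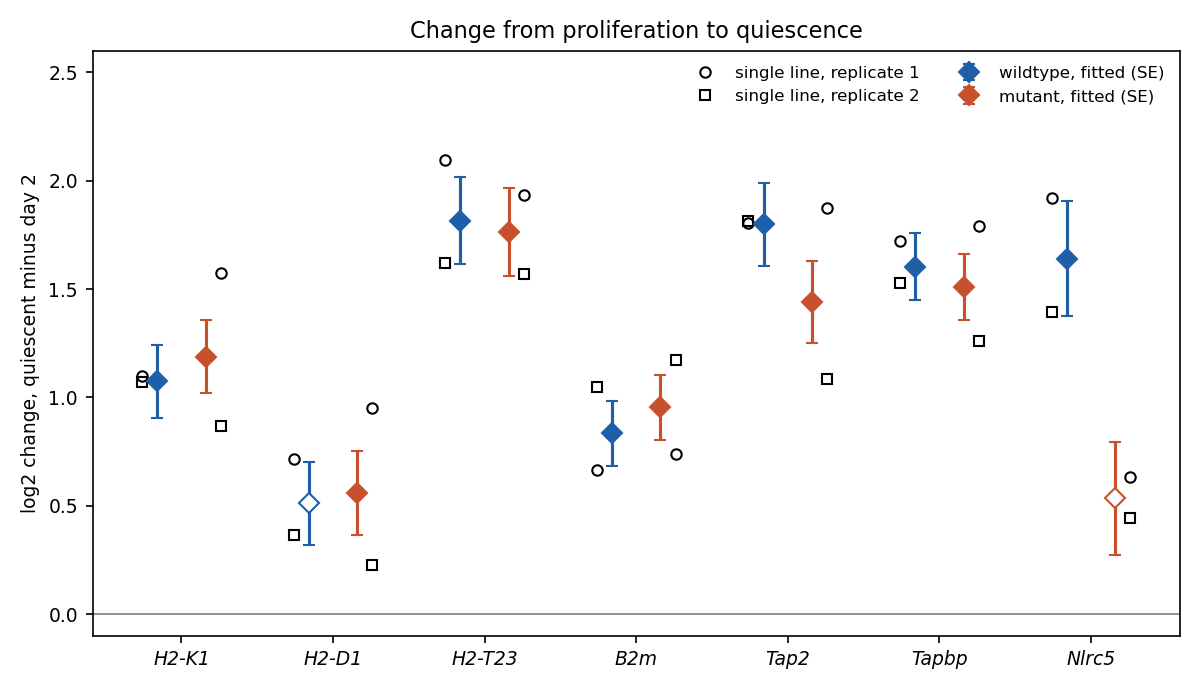
Log2 change from day 2 to the quiescent sum (vertical axis) for the 7 genes. Diamonds with SE bars are fitted values in wildtype (blue) and mutant cells (red), filled where called, and black marks are the single lines (circle for replicate 1, square for replicate 2). The open diamonds are H2-D1 in wildtype (0.51) and Nlrc5 in mutant cells (0.53).

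Per kilobase of reference transcript, the levels of the members differed widely. In wildtype cells at day 12 the 2 lines were at 902 and 914 CPM per kilobase for B2m, 30.9 and 32.7 for Tapbp, 22.6 and 22.7 for H2-D1, 17.3 and 17.6 for H2-K1, 9.21 and 10.7 for H2-T23, 5.43 and 6.60 for Tap2, and 0.540 and 0.626 for Nlrc5. No neighbours in this order overlapped. In the mutant lines at day 12, Tapbp (23.9 and 34.0 CPM per kilobase) overlapped H2-D1 (20.2 and 24.6), and H2-K1 (14.8 and 19.9) lay below both. At day 2 in wildtype, H2-D1 (13.6 and 18.2 CPM per kilobase) stood above Tapbp (9.53 and 11.7), so those genes changed places. Transcript lengths came from GRCm38, whereas the processing notes name mm9, and the order of the 3 heavy chains carries their shared sequence.

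The rest of the pathway did not move as a block. Among other class I heavy chains and class I-like genes, 11 of 22 could be tested, and 5 rose and none fell in either genotype, with a median log2 change of 1.01 in wildtype and 1.20 in mutant cells. Leading them in wildtype were Fcgrt (log2 change 2.98, SE 0.17, adjusted p = 2.09e-06) and Hfe (2.46, SE 0.24, adjusted p = 3.21e-05). Fcgrt is the neonatal Fc receptor that binds immunoglobulin G, and Hfe takes part in iron sensing. Both pair with B2m but do not present peptides. Cd1d1, which presents lipids, and Mr1, which presents vitamin B metabolites, rose by 1.44 and 1.29 (adjusted p = 0.000443 and 0.000703). Of the tested H2 genes in this list, only H2-M3 was called in wildtype (log2 change 0.89, adjusted p = 0.0150). In mutant cells only H2-T10 was called (2.99, adjusted p = 0.0154), from a mean of 0.0454 CPM at day 2. H2-Q4 and H2-T22 had wildtype changes of 0.18 and 0.19 (adjusted p = 0.639 and 0.644). Their SEs were 0.29 and 0.30, at wildtype means of 2.81 and 1.70 CPM at day 2. These H2 genes are named as examples of heavy chains that were and were not called. Of all genes tested, 23.9% rose in wildtype and 21.1% in mutant cells. Without mutant replicate 1, 3 of the 11 rose in mutant cells.

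Among 10 genes of peptide loading and trimming, 3 rose and 1 fell in wildtype cells, with a median of -0.16. In mutant cells 2 rose and 1 fell, with a median of 0.03. Over all genes tested 23.9% rose in wildtype and 21.1% in mutant cells, and the shares of the 10 that rose are not far from these. Tap1, the partner of Tap2, went from 6.94 ± 1.71 to 22.7 ± 1.91 CPM in wildtype (SD, n = 2), a log2 change of 1.69 (SE 0.19, adjusted p = 7.41e-05), and by 1.12 (SE 0.19, adjusted p = 0.00109) in mutant cells. Erap1, which trims peptides in the endoplasmic reticulum, rose by 0.70 and 0.81 in wildtype and mutant cells (adjusted p = 0.00317 and 0.00175). Tapbpl, a relative of tapasin, rose by 0.51 in wildtype (adjusted p = 0.0319), and had a log2 change of 0.21 in mutant cells (adjusted p = 0.347). The chaperone Calr, calreticulin, fell by 0.28 on the log2 scale in wildtype (adjusted p = 0.0337), a call that the line as a fixed block in edgeR ended (adjusted p = 0.083). Without wildtype replicate 2 the count of risen genes in wildtype was 1, since Erap1 and Tapbpl lost their calls (adjusted p = 0.103 and 0.161). Tapbpl also lost its call without wildtype replicate 1 (0.350), and Calr without either wildtype line (0.230 and 0.206).

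The proteasome genes went opposite ways. All 14 genes of the constitutive 20S core fell in wildtype cells (median -0.71) and 11 of them in mutant cells (median -0.47), led by Psma7 (-0.87 in wildtype, adjusted p = 0.000125), Psmb3 (-0.90, 0.000169), Psmb7 (-0.83, 0.000334) and Psmb5 (-0.69, 0.000596). By this call 23.7% of all genes tested fell in wildtype and 21% in mutant cells, and 23.9% and 21.1% rose. Psmb5 and Psmb7 are catalytic subunits that the immunoproteasome replaces. Of the 5 immunoproteasome and PA28 genes, 4 rose in either genotype (median 0.57 in wildtype and 0.71 in mutant cells). The catalytic subunits Psmb9 and Psmb8 rose by 2.17 (SE 0.51, adjusted p = 0.00628) and 1.72 (SE 0.45, adjusted p = 0.0108) in wildtype, from means of 0.207 and 0.594 CPM at day 2. The PA28 activator subunits Psme2 and Psme1 rose by 0.57 and 0.35 (adjusted p = 0.00159 and 0.0279), and for Psme1 the line as a fixed block in edgeR gave adjusted p = 0.056. Psmb8 lost its call with the line as a random block in limma-voom, with adjusted p = 0.0638 in wildtype and 0.1005 in mutant cells. Psmb10, named because it alone of the 5 was not called, was at 13.8 ± 0.482 and 14.5 ± 1.58 CPM in wildtype (SD, n = 2), with adjusted p = 0.793.

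Single lines carried much of these counts. Without wildtype replicate 1, 5 of the 14 constitutive genes fell and 1 of the 5 immunoproteasome and PA28 genes rose in wildtype cells, and without wildtype replicate 2 those counts were 13 and 2. Without mutant replicate 1 they were 4 and 1 in mutant cells, and without mutant replicate 2 they were 10 and 4. Without wildtype replicate 1, Psmb9 and Psmb8 had wildtype changes of 1.66 and 1.24, with adjusted p = 0.139 and 0.204.

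**Figure D3:**
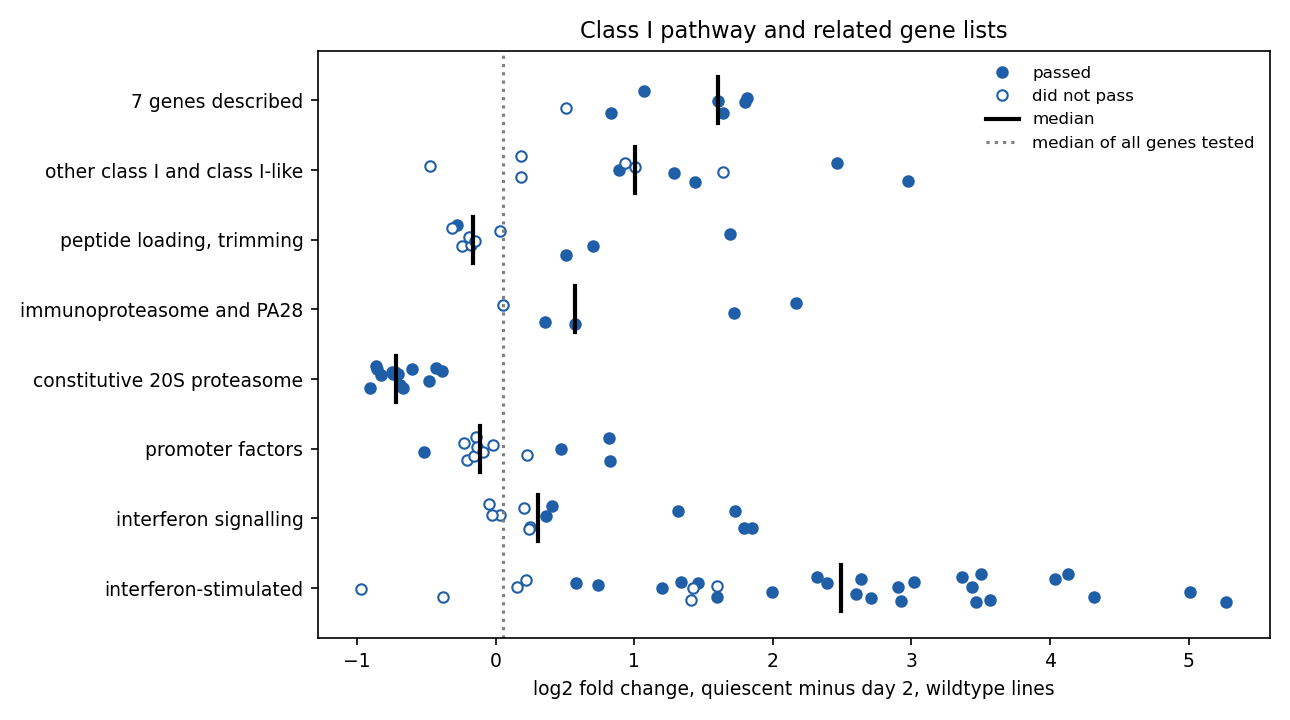
Log2 fold change from day 2 to the quiescent sum in wildtype cells (horizontal axis) for each tested gene of 8 lists (vertical axis), filled where called, with a bar at each list's median and a dotted line at the median of all genes (0.05). The constitutive 20S genes all lie below 0 (median -0.71), the 7 class I genes all above 0 (median 1.60), and interferon-stimulated genes reach the highest values (median 2.49).

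Among 12 factors known at class I promoters, 3 rose and 1 fell in wildtype cells (median -0.11), and 3 rose and none fell in mutant cells (median 0.00). Over all genes tested 23.9% rose in wildtype and 21.1% in mutant cells, and the share of the 12 that rose lies near these. Rfx5, the DNA-binding subunit of RFX, rose by 0.83 and 0.66 in wildtype and mutant cells (adjusted p = 0.000439 and 0.00199), and its partner Rfxank by 0.47 and 0.51 (0.0286 and 0.0234). Irf1, an interferon regulatory factor, rose by 0.82 and 0.55 (0.00213 and 0.0188). Nfyc, a subunit of NF-Y, fell by 0.51 on the log2 scale in wildtype (adjusted p = 0.0107) and had a log2 change of -0.32 in mutant cells (0.0874). Without wildtype replicate 1, Rfxank and Nfyc were not called in wildtype (0.229 and 0.294), and without wildtype replicate 2, Irf1 and Rfxank were not (0.0892 and 0.278). Of the mutant counts, 1 gene was left without mutant replicate 1, and 1 without either wildtype line, which enter the shared estimate of the spread.

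Genes of the interferon response were higher at quiescence as well. Of 32 interferon-stimulated genes, all tested, 25 rose and none fell in either genotype, with medians of 2.49 in wildtype and 2.35 in mutant cells. The share of all genes tested that rose was 23.9% in wildtype and 21.1% in mutant cells. Isg15, a ubiquitin-like modifier, was at 1.29 to 2.41 CPM in the 4 lines at day 2 and at 17.1 to 45.2 CPM in the 12 quiescent libraries, with log2 changes of 4.04 (SE 0.26, adjusted p = 2.98e-06) and 3.75 (SE 0.25, adjusted p = 5.76e-06) in wildtype and mutant cells. Irgm2, an immunity-related GTPase, Ifit3, which takes part in antiviral signalling, and Bst2 (tetherin), which holds budding virus at the membrane, rose by 3.50, 3.46 and 2.64 in wildtype (adjusted p = 1.59e-06, 5.76e-06 and 4.62e-06). Of 12 tested interferon signalling genes, 6 rose and none fell in either genotype (median 0.31 in wildtype, 0.30 in mutant cells). Among them were Stat2 and Irf9, transcription factors of the type I interferon response, with log2 changes of 1.79 and 1.73 in wildtype (adjusted p = 8.9e-06 and 8.95e-06). The feedback inhibitor Socs3 rose by 1.32 (SE 0.29, adjusted p = 0.00505). Without wildtype replicate 1 or 2 the wildtype counts were 22 or 23 interferon-stimulated and 4 signalling genes. Without mutant replicate 1 the mutant counts were 23 and 3, and without replicate 2 they were 22 and 5. The interferon genes Ifnb1 and Ifng had 0 reads in all 16 libraries, which allows up to 0.0491 to 0.107 CPM in a library by counting error alone. Other interferon genes were not on the lists and were not looked at.

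Markers of other cells also moved with state. The summed level of 17 macrophage and leukocyte markers went from 139 CPM at day 2 to 637 at day 12 in mutant replicate 1, from 107 to 354 in wildtype replicate 2, from 24.7 to 108 in wildtype replicate 1 and from 17.2 to 44.1 in mutant replicate 2. None of the 17 was called in either genotype, and 16 had a higher fitted value at quiescence. In mutant replicate 2 the sum was 15.97 CPM at day 8, below its day 2 value. In that 1 library the members stood above day 2 by unlike amounts. H2-T23 was at 10.2 against 3.87 CPM and B2m at 779 against 356, but H2-D1 at 42.9 against 40.4 and Nlrc5 at 2.48 against 2.06. The sum of 9 class II presenting cell markers was 1.86 to 3.27 CPM at day 2 and 3.33 to 6.09 later, and Ciita, the class II relative of Nlrc5, had 0 to 7 reads a library. For 8 lymphocyte markers the sum was 0.0847 to 0.446 CPM, with 4 to 7 of them at 0 in every library. Endothelial and epithelial sums (6 markers each) went from 16.2 to 18.6 and 11.03 to 16.01 CPM at day 2 to 4.56 to 7.88 and 1.60 to 4.56 CPM later. Their members did not move together: in wildtype the endothelial Kdr fell by 3.11 on the log2 scale and Tek rose by 2.26 (adjusted p = 9.92e-06 and 0.00561), and the epithelial Krt18 fell by 2.80 and Cdh1 rose by 3.11 (1.71e-05 and 0.0223), genes picked here after their values were seen. The part of such cells in the rise of the class I genes was not tested.

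The study compared the genotypes, and for the class I genes no difference was called. None of the 7 was called between mutant and wildtype at day 2 or at quiescence, where 0.00635% of all genes were (1 of 15740, Plagl1), nor at day 8, 10 or 12, where 0.00648% were (1 of 15439, again Plagl1). At an unadjusted p under 0.05, edgeR counted 451 of 15740 genes at day 2 and 76 at quiescence. In the fit of single days it counted 276, 1507 and 227 of 15439 at days 8, 10 and 12. Nlrc5 alone of the 7 was among them, at quiescence and at day 8. DESeq2 also called none of the 7. At quiescence the other 6 members differed by -0.04 to 0.08 on the log2 scale, with SEs of 0.15 to 0.19, and at day 2 the members other than Nlrc5 and Tap2 differed by -0.11 to 0.10, with SEs of 0.15 to 0.20. At single days the members other than Nlrc5 differed by -0.18 to 0.29, the highest being H2-D1 and H2-K1 at day 10, where both mutant lines lay above both wildtype lines (adjusted p = 0.628 and 0.619). With 2 lines each, differences well above these errors could go uncalled, such as -1.11 (SE 0.37) for Nlrc5 in the change of state. The lack of calls does not show that the genotypes are alike.

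Nlrc5 had the widest gap between genotypes. In mutant against wildtype cells it differed by 0.53 (SE 0.27, unadjusted p = 0.0773) at day 2 and by -0.57 (SE 0.25, unadjusted p = 0.0461) at quiescence, and by -0.71, -0.44 and -0.43 at days 8, 10 and 12 in the fit of single days. The lines did not overlap at any of these times. The later days and the quiescent sum hold the same lines, so these are not separate observations. How many of all genes had lines that did not overlap was not counted. Adjusted over all genes, p was 1.00 at day 2, at quiescence, at day 8 and at day 12, and 0.648 at day 10, so none was called. The difference between genotypes in the change of state was itself tested: it was -1.11 (SE 0.37, unadjusted p = 0.0137, adjusted p = 1.00) for Nlrc5, and 0% of all genes were called (0 of 15740). At an unadjusted p under 0.05 edgeR counted 265 genes there, and DESeq2 called 1 gene, none of the 7. The rise of Nlrc5 in wildtype alone is therefore not shown to differ between genotypes. Tap2 was 0.36 higher (SE 0.19, unadjusted p = 0.0929, adjusted p = 1.00) in mutant cells at day 2, where its lines did not overlap.

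**Figure D4:**
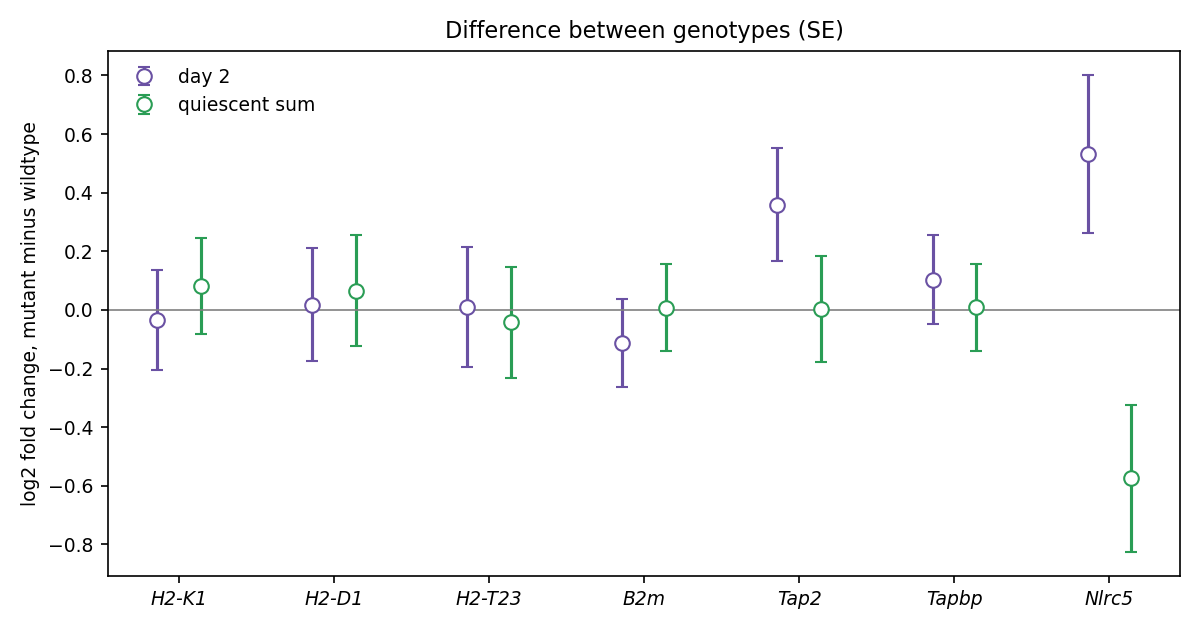
Log2 fold change of mutant minus wildtype (vertical axis) with SE bars for the 7 genes at day 2 (purple) and in the quiescent sum (green), all open because none was called. Nlrc5 lies at 0.53 at day 2 and at -0.57 at quiescence, and the other 6 lie within -0.04 and 0.08 at quiescence.

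By day 8 each of the 7 stood above its day 2 level in all 4 lines. Between day 8 and day 12 none of the 7 was called in wildtype, where 0.816% of all genes were (126 of 15439), or in mutant cells, where 1.09% were (168 of 15439). That fit takes harvests of a line as independent, and with the line as a fixed block in edgeR 304 and 319 genes were called, still with none of the 7. As a random block in limma-voom it gave 192 and 148. DESeq2 also called none of them. At an unadjusted p under 0.05 edgeR counted Tap2 alone of the 7 in either genotype. By that measure 1214 of 15439 genes were counted in wildtype and 1350 in mutant cells. Tap2 was higher at day 12 than at day 8 in all 4 lines, and its day 8 and day 12 lines did not overlap. The log2 differences were 0.42 (SE 0.20, adjusted p = 0.633) in wildtype and 0.57 (SE 0.20, adjusted p = 0.330) in mutant cells. From day 10 to day 12 it went down in both replicate 2 lines, from 20.2 to 18.7 CPM in wildtype and from 20.01 to 18.3 in mutant cells.

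The members followed each other across all libraries, and less closely within the quiescent ones. Over all 16 libraries, the Pearson correlation of log2(CPM + 0.5) with the mean of the other 6 was 0.97 for Tapbp and H2-T23, 0.96 for H2-K1 and Tap2, 0.86 for B2m, 0.83 for H2-D1 and 0.76 for Nlrc5. Within the 12 quiescent libraries it was 0.79 for H2-D1, 0.75 for H2-K1, 0.67 for H2-T23, 0.63 for Tap2, 0.47 for Tapbp, 0.01 for Nlrc5 and -0.33 for B2m. The points share 4 lines and 3 days. Outside the members and lists, the genes most like the mean of the 7 were Ypel3, Zfp395, Mmp14, Cul9, Kdm4b, Aebp1, Pltp and Rnf167, with correlations of 0.99 over the 16 libraries. Such likeness was common: 1313 of 15294 genes had a correlation over 0.9 and 433 over 0.95.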

How the data were processed

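Total RNA of 16 MEF cultures was sequenced from stranded libraries. The values used are the deposited raw counts of reads per gene. The submitters' processing notes name the build mm9 and, in no stated order, HTSeq 0.6.1p1, Bowtie2 2.2.9, TopHat2 2.1.1 and bcl2fastq 2.18; the annotation and the strand setting are not given in the sources used here.

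Counts were scaled by TMM, filtered with filterByExpr and tested by the two-sided quasi-likelihood test of edgeR 4.0.16 in R 4.3.3, with Benjamini-Hochberg adjustment over all genes tested. The summed model had 8 samples (day 2, and the sum of days 8, 10 and 12, of each line), 15740 genes and 4 residual degrees of freedom. The model of single days had 16 libraries, 15439 genes and 8 residual degrees of freedom. Alternatives used DESeq2 1.42.0, limma 3.58.1, other scalings and filters, a block, and samples left out. Libraries of a line pair across states by the labels, and their deviations correlated at 0.23 and 0.24. No 2 libraries of a group agreed within sampling noise. The tests were tried on simulated data.

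Depth was 28079241 to 61039793 counts a library, and 3 counts came to 0.0491 to 0.107 CPM. The members and lists were chosen with earlier results of these data known. Some genes are named for a reason given beside them. The others named beside the members are Plagl1, up to 4 genes of each list with the smallest p between states in wildtype, and the 8 genes most correlated with the members' mean. A gene that this rule names is not reported here.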

Additional observations from a re-analysis of the deposited data

How the results depend on the processing

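The count of called members kept within 1.5 times its value under every alternative run: 5 to 7 between states in wildtype, 5 to 6 in mutant cells, and 0 between genotypes, between days 8 and 12 and for the difference in the change of state. Leaving out each line in turn also gave 5 to 7 and 5 to 6; a group then has 1 line, assumed to vary like the others. The replicate block in edgeR, which for states and days is the line, gave 7 in wildtype and 6 in mutant cells. Besides the H2-D1, Calr and Psme1 calls given with the results, and the counts of all genes between days 8 and 12, it changed no call of a gene named with its value between states. Replicate numbers are shared by the genotypes without a stated pairing (correlation of deviations 0.19 at day 2 and 0.11 at quiescence); with that number as the block, no member was called between genotypes, as without it.

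Among the 7 members, only H2-D1 and B2m changed their call between states in the alternatives run. H2-D1 in wildtype was called in 10 of 17 alternatives (adjusted p from 0.0130 to 0.375) and in mutant cells in 12 of 17 (0.00672 to 0.422); it was also lost in mutant cells without day 10 (0.43, adjusted p = 0.101) and, narrowly, without the low-count filter (0.0501) or either wildtype line (0.0528 and 0.0554). B2m in wildtype was called in 16 of 17. No member changed sign between states in 238 values; between genotypes 80 of 595 values did, none called. Upper-quartile scaling and library totals moved the median of all genes in wildtype to 0.12 and 0.15, without changing a direction of a member.

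Genes called overall between states fell from 7486 in wildtype to 4185 and 4380 without wildtype replicates 1 and 2. Between days 8 and 12, DESeq2 called 306 and 357 genes in place of 126 and 168, and leaving out a line gave 0 to 192 and 29 to 74. Compared alone, the groups gave 23 and 0. Between genotypes at day 10, DESeq2 called 15 and leaving out a line gave 0 to 51. Plagl1 lost its call in some runs on single days with a line left out, and, when the groups were compared alone, at quiescence (adjusted p = 0.289) and at days 8, 10 and 12 (0.763, 0.250 and 0.686).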
